A study of Mus musculus with 6 samples.

Results

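Interferon-stimulated genes were examined in the jejunal mucosa of mice whose intestine has overactive SREBP2, the transcription factor that switches on cholesterol synthesis. The set holds 40 named genes. A gene was counted as measured where a probe set of the array was annotated with its symbol alone, and 36 of the 40 were measured among 19938 genes in all. Isg15, Gbp2 and Gbp6 appear only in probe sets shared with other symbols, and Ifi44 was not matched, so these 4 were not analysed here. Jejunal mucosa was scraped from ISR2 mice, a transgenic line on a C57/BL background (3 samples), and from wild type littermates on that background (3 samples). All mice were 8 to 10 weeks old and ate regular chow. The labels name intestine-specific SREBP2 overactivation but neither the promoter nor the form of the transgene. Each sample was hybridised to 1 array. Levels are log2 values from RMA, a method that corrects background, equalises arrays and summarises probes. Whether the arrays stand for separate animals is not stated, so p-values measure only the spread between these samples, which may be technical, and the number of arrays limits the precision.

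Interferons are secreted proteins that warn cells of virus and microbes. Type I and type III interferons bind receptors that activate STAT2. With IRF9 it takes part in a complex that binds the interferon-stimulated response element (ISRE) and switches on antiviral genes. Interferon-gamma, made by T cells and natural killer cells, acts at the gamma-activated site (GAS) and through IRF1, and raises GTPases and the machinery of antigen presentation. In the intestine these genes have a resting level that is maintained by microbes and immune cells, and the epithelium responds mainly to type III interferon.

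The labels were checked first. Srebf2, the gene of SREBP2, stood at 9.04, 9.15 and 9.50 in wild type replicates 1, 2 and 3 and at 11.02, 10.85 and 11.16 in ISR2 replicates 1, 2 and 3. The 11 measured genes of a cholesterol synthesis list were all higher and all passed the test. The test was limma, fitted over all 19938 genes, with p-values adjusted by Benjamini-Hochberg and a threshold of 0.05; 356 genes (1.79%) passed upward and 246 (1.23%) downward. Of these calls 59.1% were upward, and 72.8% were when each array was centred on its median. Enterocyte markers were bright in all arrays, with list means of 12.23 to 12.29 in wild type and 12.04 to 12.18 in ISR2 mucosa. Of 7 such markers, Alpi, the intestinal alkaline phosphatase gene, fell (-0.77 ± 0.16, SE; limma adjusted p = 0.0417). Its call survived the loss of ISR2 replicate 2 but of no other array (adjusted p up to 0.194). Vil1 and Epcam were lower in all 3 ISR2 arrays without passing. The list did not lean downward throughout. Of its 7 estimates 3 were above 0 (Cdx2, Fabp1 and Sis) and 4 below, with a median of -0.03.

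The interferon-stimulated genes did not move as a block. Rsad2, Stat2 and Oasl1 rose, Zbp1, Oas3, Irf1 and Oas2 fell, and 29 did not pass. These 7 calls among 36 members stand beside 3.02% called in either direction over all genes. The 3 rises are 8.33% of the measured members, beside 1.79% of all genes. The 4 falls are 11.1%, beside 1.23% of all genes. The median log2 change of the 36 was -0.16, against -0.06 over all genes tested, and 26 of 36 estimates (72.2%) were below 0, against 62.6% of all genes; after median centring 22 were. In 12 members all ISR2 arrays lay on 1 side of all wild type arrays, 4 above (5.87% of all genes were) and 8 below (13.9% of all genes). Such separation held for 33.3% of members and 19.8% of all genes. At an unadjusted p of 0.05 in limma 5 members were higher and 8 lower, beside 4.73% and 8.4% of all genes. The counts depended on single arrays. Only Stat2 rose without wild type replicate 1 or ISR2 replicate 1. No member fell with either of wild type replicates 1 and 2 left out. Zbp1 alone fell when the array left out was the third of either genotype or the first of ISR2. After median centring, too, Zbp1 was the only member that fell.

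**Figure D1:**
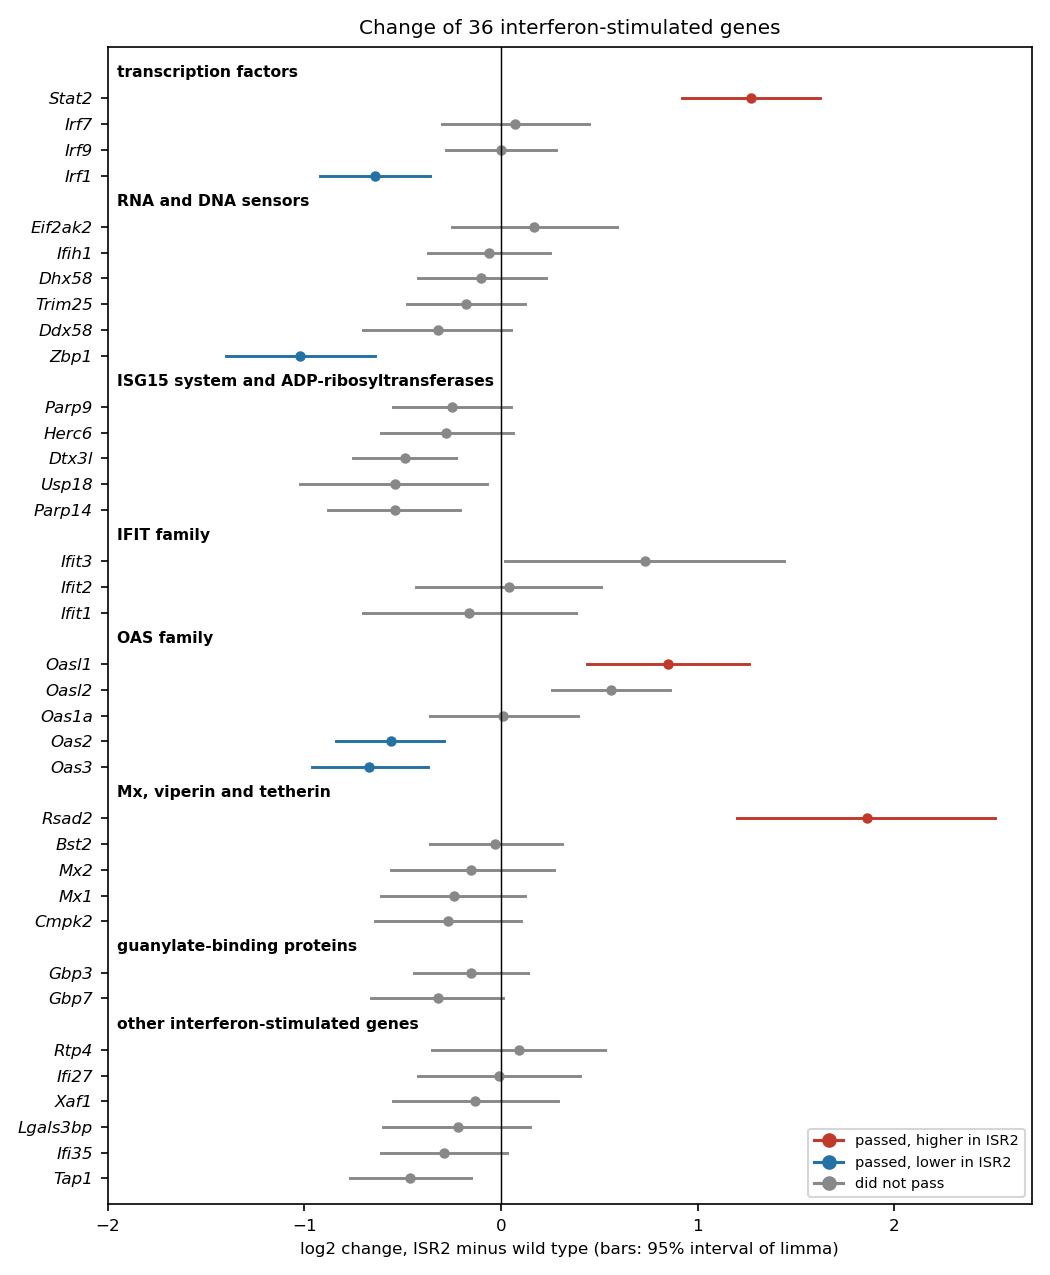
Log2 change (x axis, ISR2 minus wild type) of each of the 36 measured members, grouped by role, with points for limma's estimates and bars for 95% intervals over 3 arrays per group. Rsad2, Stat2 and Oasl1 (red) passed upward, and Zbp1, Oas3, Irf1 and Oas2 (blue) passed downward; grey genes did not pass.

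Among the transcription factors of the pathway, Stat2 and Irf1 went in opposite directions. Stat2 encodes the DNA-complex subunit specific to type I and type III signalling. It stood at 8.21, 8.45 and 8.14 in the wild type replicates and at 9.78, 9.47 and 9.35 in the ISR2 replicates. Every ISR2 array was above every wild type array. The rise was 2.41-fold, a log2 change of 1.27 ± 0.15 (SE, 3 arrays per group; limma adjusted p = 0.0021). Stat2 was the only member whose call held under each of the 18 alternative settings, with adjusted p-values up to 0.0164 when 1 array was left out. Irf1 encodes the factor that carries much of the interferon-gamma response. It stood at 9.46, 9.30 and 9.54 in wild type and at 8.79, 8.74 and 8.86 in ISR2 mucosa. The groups were apart and tight, with SDs of 0.12 and 0.06 (n = 3). Irf1 fell by 0.64 on the log2 scale (SE 0.12; limma adjusted p = 0.0274). Its call was lost without any single array (adjusted p from 0.0525 to 0.128) and after median centring (0.0602). A second, dimmer probe set of Irf1 was also lower in all 3 ISR2 arrays, by 0.25 on the log2 scale, without passing (-0.25 ± 0.12, SE). The call depended on the choice of probe set. With the mean of both probe sets the change was -0.44 and did not pass (limma adjusted p = 0.0949). The brighter probe set did not pass when all rows were tested (limma adjusted p = 0.0783).

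The other members of this group showed no measured shift. Irf9, the DNA-binding partner of STAT2, ranged from 8.28 to 8.40 in wild type and from 8.24 to 8.46 in ISR2 mucosa. Its log2 change was 0.00 with a 95% interval from -0.28 to 0.28. Irf7, the factor that amplifies interferon production, stood at 9.63, 9.28 and 9.48 in wild type and at 9.41, 9.85 and 9.36 in ISR2 mucosa. The groups overlapped, and the interval of the change ran from -0.30 to 0.45.

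Of the sensors of foreign nucleic acid, only Zbp1 passed. Zbp1 encodes a receptor of left-handed nucleic acid that can start necroptosis. It stood at 8.35, 8.17 and 7.82 in wild type and at 7.20, 7.19 and 6.88 in ISR2 mucosa. The lowest wild type array was above the highest ISR2 array. Zbp1 was 2.03-fold lower, with a log2 change of -1.02 ± 0.17 (SE; limma adjusted p = 0.0107). It no longer passed without wild type replicate 1 (adjusted p = 0.0553) or wild type replicate 2 (adjusted p = 0.0501). Ddx58, which encodes the RNA sensor RIG-I, stood at 9.12, 8.72 and 9.28 in wild type and at 8.61, 8.68 and 8.85 in ISR2 mucosa. The groups overlapped and the interval of its change ran from -0.70 to 0.05. Ifih1, the gene of the long-RNA sensor MDA5, and Dhx58, the gene of its regulator LGP2, changed by -0.06 ± 0.14 and -0.10 ± 0.14 (SE). Trim25, the ubiquitin ligase that assists RIG-I, was at -0.18 ± 0.13. Eif2ak2, the kinase PKR that halts translation on sensing double-stranded RNA, was at 0.17 ± 0.19. None of these 5 passed, and each interval included 0. The estimate of Ifih1 was 0.02 after median centring.

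Of the 5 measured genes of the oligoadenylate synthetase family, Oas3 and Oas2 fell, Oasl1 rose, and Oas1a and Oasl2 did not pass. Oas2 and Oas3 encode enzymes that make the messenger that activates RNase L. Oas3 stood at 7.89, 7.85 and 8.13 in wild type and at 7.28, 7.37 and 7.21 in ISR2 mucosa. Oas2 stood at 6.57, 6.54 and 6.59 in wild type and at 6.01, 6.13 and 5.88 in ISR2 mucosa. In both genes all ISR2 arrays were below all wild type arrays. Oas3 fell by 0.67 on the log2 scale (SE 0.13; limma adjusted p = 0.0274) and Oas2 by 0.56 (SE 0.12; limma adjusted p = 0.0447). Both calls survived the loss of ISR2 replicate 2 but of no other array (adjusted p up to 0.127 for Oas3 and 0.172 for Oas2). After median centring neither passed (adjusted p = 0.0599 and 0.117). Testing all rows also left both without a call (limma adjusted p = 0.0783 for Oas3 and 0.103 for Oas2). Oas2 just missed the threshold with quantile normalization (limma adjusted p = 0.0503), and the filter on dim genes left it out.

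Among the OAS-like genes, Oasl1 rose. It encodes a protein that lacks synthetase activity and restrains translation of Irf7 mRNA. Oasl1 stood at 9.65, 9.48 and 9.70 in wild type and at 10.64, 10.67 and 10.05 in ISR2 mucosa, so the groups did not overlap and ISR2 replicate 3 was nearest to wild type. Oasl1 rose 1.80-fold (log2 change 0.85 ± 0.18, SE; limma adjusted p = 0.0407). Its call survived the loss of ISR2 replicate 3 but of no other array (adjusted p up to 0.186). Oasl2, its neighbour on the chromosome, stood at 9.90, 9.77 and 10.07 in wild type and at 10.46, 10.59 and 10.38 in ISR2 mucosa. These groups did not overlap either, but the log2 change of 0.56 ± 0.13 (SE) missed the threshold (limma adjusted p = 0.0645). It passed after median centring (adjusted p = 0.0479), with array weights (0.0145) and with a filter on dim genes (0.0414). Oas1a, another synthetase gene, was at 0.01 ± 0.16 (SE), with a 95% interval from -0.36 to 0.39.

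**Figure D2:**
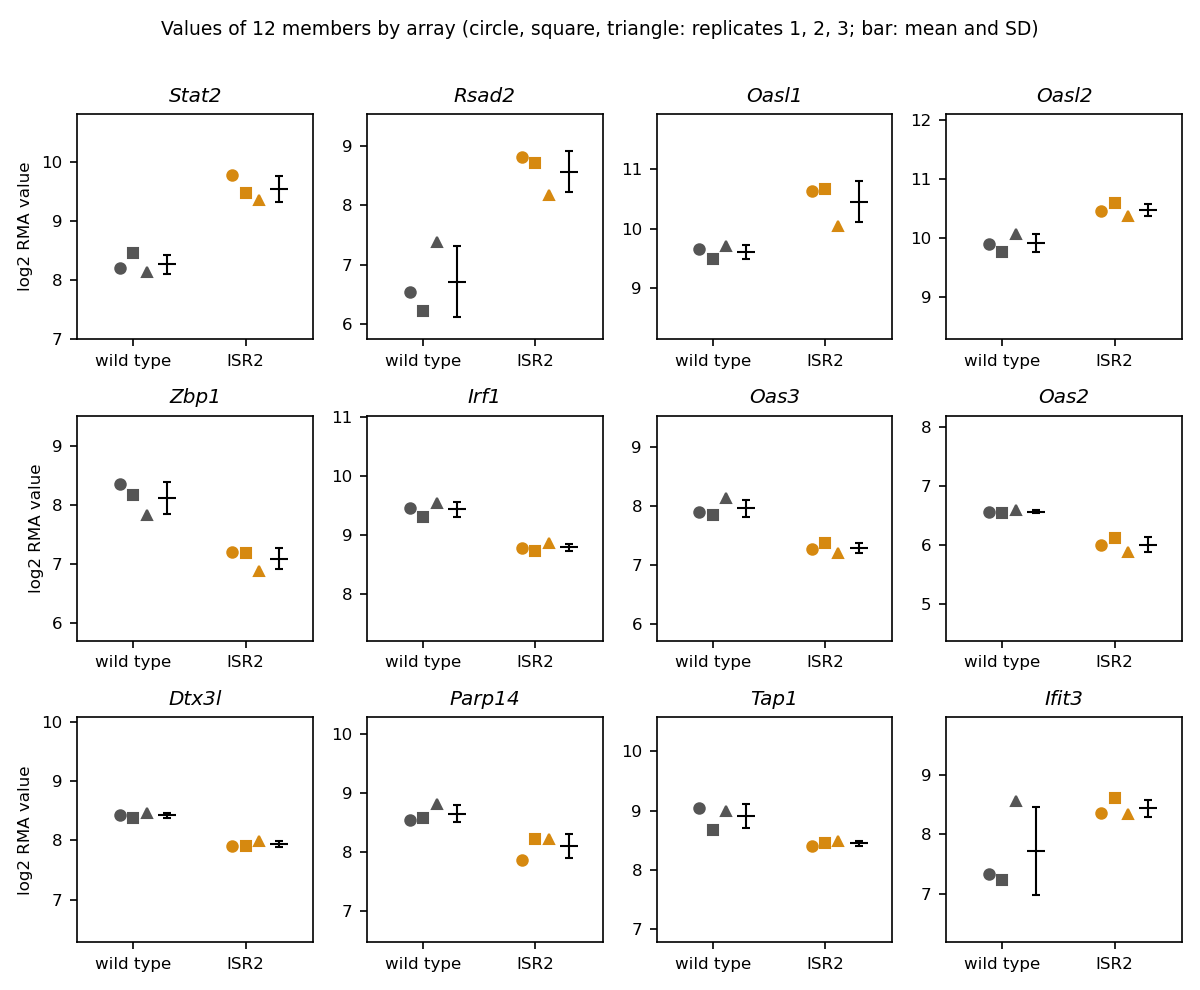
Log2 RMA values (y axis, equal span in all panels) of 12 members in each wild type array (grey) and ISR2 array (orange); symbols mark replicates 1, 2 and 3, and bars give mean and SD. Groups are apart in every panel except that of Ifit3, where wild type replicate 3 lies at 8.57 among the ISR2 arrays.

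Rsad2 had the largest change of the 36 measured members. It encodes viperin, a radical enzyme that makes a chain-terminating nucleotide and sits on the endoplasmic reticulum and lipid droplets. Rsad2 stood at 6.53, 6.22 and 7.38 in wild type and at 8.81, 8.72 and 8.17 in ISR2 mucosa. The wild type arrays were spread, with replicate 3 well above the other two, yet all ISR2 arrays were higher. The rise was 3.62-fold, a log2 change of 1.86 ± 0.29 (SE; limma adjusted p = 0.00812). The call was lost without wild type replicate 1 (adjusted p = 0.0521) or ISR2 replicate 1 (adjusted p = 0.0557).

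Cmpk2, the mitochondrial nucleotide kinase gene next to Rsad2, did not rise with it. It stood at 7.65, 7.09 and 7.43 in wild type and at 7.01, 7.25 and 7.12 in ISR2 mucosa, with overlapping groups and a log2 change of -0.27 ± 0.16 (SE). The difference between Rsad2 and Cmpk2 on the same array was -1.12, -0.87 and -0.05 in wild type and 1.81, 1.48 and 1.05 in ISR2 mucosa. This pair was chosen after its values were seen, so the difference is a description, with no test.

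The promoters of these genes were taken from RefSeq (GRCm38.p6), which gave a sequence for 29 of the 40 genes, 26 of them measured. They are shown because Stat2, Rsad2 and Oasl1 rose while Oas3 and Irf1 fell, and because Cmpk2 neighbours Rsad2. Each line gives the 250 bases before a transcription start, read 5′ to 3′ along the gene. Capitals mark matches on either strand to the ISRE core (GAAA, any 2 bases, GAAA) or the GAS core TTCNNNGAA, which did not overlap each other in these 6 sequences. The stretches are chr10:128270248-128270497 (plus strand) for Stat2, chr12:26456453-26456702 (minus) for Rsad2, chr12:26468965-26469214 (plus) for Cmpk2, chr5:114922990-114923239 (plus) for Oasl1, chr5:120777660-120777909 (minus) for Oas3 and chr11:53769764-53770013 (plus) for Irf1, the last for 1 of its 2 starts in the table.
Stat2: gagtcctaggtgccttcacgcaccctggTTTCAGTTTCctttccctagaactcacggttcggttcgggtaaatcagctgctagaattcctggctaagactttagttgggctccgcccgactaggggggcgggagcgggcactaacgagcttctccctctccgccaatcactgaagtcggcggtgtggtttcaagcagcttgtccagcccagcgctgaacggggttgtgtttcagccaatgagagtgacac
Rsad2: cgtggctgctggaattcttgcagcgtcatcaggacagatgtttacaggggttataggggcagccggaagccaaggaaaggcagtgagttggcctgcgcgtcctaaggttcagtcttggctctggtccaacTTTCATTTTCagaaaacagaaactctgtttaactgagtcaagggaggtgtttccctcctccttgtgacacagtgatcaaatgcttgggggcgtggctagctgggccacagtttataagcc
Cmpk2: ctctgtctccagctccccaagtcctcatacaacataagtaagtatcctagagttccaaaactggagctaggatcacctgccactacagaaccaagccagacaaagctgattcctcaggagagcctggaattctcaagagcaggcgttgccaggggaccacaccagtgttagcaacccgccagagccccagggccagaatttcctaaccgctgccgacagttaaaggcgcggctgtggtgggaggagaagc
Oasl1: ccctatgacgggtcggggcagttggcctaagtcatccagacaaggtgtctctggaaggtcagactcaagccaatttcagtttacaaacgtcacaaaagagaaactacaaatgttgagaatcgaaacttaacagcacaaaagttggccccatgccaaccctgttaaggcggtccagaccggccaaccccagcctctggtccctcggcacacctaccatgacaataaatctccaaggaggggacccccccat
Oas3: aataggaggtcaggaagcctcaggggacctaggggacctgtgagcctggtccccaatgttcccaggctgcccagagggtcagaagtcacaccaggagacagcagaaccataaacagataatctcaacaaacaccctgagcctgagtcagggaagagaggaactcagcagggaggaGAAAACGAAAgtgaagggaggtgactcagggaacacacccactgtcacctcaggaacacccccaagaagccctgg
Irf1: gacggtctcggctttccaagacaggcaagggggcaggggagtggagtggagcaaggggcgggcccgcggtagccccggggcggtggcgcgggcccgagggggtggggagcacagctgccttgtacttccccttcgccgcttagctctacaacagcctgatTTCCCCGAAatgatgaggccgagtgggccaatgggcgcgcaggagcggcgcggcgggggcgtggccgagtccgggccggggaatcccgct
The ISRE core began 222 bases before the start of Stat2, 120 before that of Rsad2 and 75 before that of Oas3. The GAS core began 90 bases before the start of Irf1 that is shown. Of the 2 starts of Irf1, a start holding a match was preferred for display. Neither string was found in these windows of Cmpk2 and Oasl1. So the ISRE core was present in genes that rose and in a gene that fell. Over the whole set, 11 of 29 genes (37.9%) held the ISRE core in such a window, against 3.46% of 27025 genes in the table. The GAS core was held by 6 of 29 (20.7%), against 8.13% of all. A core of the sterol regulatory element bound by SREBP, TCACNCCAC, was held by 0 of 29, against 1.22% of all. At so low a share 29 windows are too few to tell a lack of this string from the usual rate. A match is a string of letters and not a measured binding site. The table gave no promoter for Zbp1 or Oas2.

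The IFIT genes encode proteins that bind viral RNA and block its translation, and none of the 3 passed. Ifit3 stood at 7.34, 7.23 and 8.57 in wild type and at 8.36, 8.61 and 8.35 in ISR2 mucosa. Wild type replicate 3 lay among the ISR2 arrays, and the change was 0.73 ± 0.31 (SE; limma adjusted p = 0.364). Without wild type replicate 3 the change was 1.16 and passed (adjusted p = 0.00553). Ifit3 has a near-identical copy, Ifit3b, so signal shared between their probes is possible. The probe set annotated to Ifit3b alone was dim, between 3.24 and 4.20 over all arrays, and changed by 0.03 ± 0.23 (SE). Ifit1 stood at 8.34, 8.03 and 8.78 in wild type and at 7.82, 8.62 and 8.22 in ISR2 mucosa. The groups overlapped (-0.16 ± 0.24, SE), and the estimate was 0.03 without wild type replicate 3. Ifit2 was dim, from 5.08 to 5.36 and from 4.76 to 5.59, and changed by 0.04 ± 0.21.

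The remaining antiviral effectors gave no call. Bst2 encodes tetherin, which holds budding virus at the cell surface. It ranged from 7.15 to 7.52 in wild type and from 7.16 to 7.44 in ISR2 mucosa (-0.03 ± 0.15, SE), and its estimate was 0.05 after median centring. Mx1 and Mx2, the dynamin-like GTPases, changed by -0.24 ± 0.16 and -0.15 ± 0.18. Mx1 is known to be disrupted in most laboratory strains. Mx2 lay between 4.24 and 4.97 over all arrays; no background value shows that so dim a signal was detected.

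Estimates were below 0 in all 5 measured genes of the ISG15 system and its neighbours, beside 62.6% of all genes. None passed. In 3 of the 5 all ISR2 arrays were below all wild type arrays, beside 13.9% of all genes. ISG15 is a ubiquitin-like tag; Usp18 encodes the protease that removes it and also damps the type I receptor, and Herc6 the ligase that attaches it. Dtx3l, a ubiquitin ligase, and Parp9 work as a complex, and Parp14 is a related ADP-ribosyltransferase gene at the same locus. Dtx3l stood at 8.43, 8.38 and 8.46 in wild type and at 7.91, 7.90 and 7.99 in ISR2 mucosa. The gap was several times the SDs of 0.04 and 0.05 (n = 3), yet the change of -0.49 ± 0.11 (SE) just missed the threshold (limma adjusted p = 0.0617). Parp14 stood at 8.55, 8.58 and 8.81 in wild type and at 7.87, 8.23 and 8.22 in ISR2 mucosa. These groups were apart as well (-0.54 ± 0.15, SE; limma adjusted p = 0.114). Parp9 was at -0.25 ± 0.13 with groups apart. Usp18 was at -0.54 ± 0.21 and Herc6 at -0.28 ± 0.15, both with overlap. Dtx3l passed with array weights (adjusted p = 0.014), quantile normalization (adjusted p = 0.0471) or a filter on dim genes (adjusted p = 0.0362), and Parp14 with array weights (adjusted p = 0.0118).

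The last members include genes that respond strongly to interferon-gamma. Tap1, which pumps peptides to MHC class I, stood at 9.05, 8.67 and 8.99 in wild type and at 8.40, 8.45 and 8.49 in ISR2 mucosa. All ISR2 arrays were lower, but the change of -0.46 ± 0.14 (SE) did not pass (limma adjusted p = 0.159). Gbp7 stood at 6.81, 6.86 and 6.84 in wild type and at 6.81, 6.38 and 6.34 in ISR2 mucosa, so only ISR2 replicates 2 and 3 were lower (-0.32 ± 0.15, SE). Gbp3 was at -0.15 ± 0.13; guanylate-binding proteins are close paralogs, and signal may be shared between their probes. Ifi35 was at -0.29 ± 0.14, Lgals3bp, a secreted galectin-binding protein gene, at -0.22 ± 0.17, and Xaf1, a proapoptotic gene, at -0.13 ± 0.19. Rtp4, a receptor transporter gene, was at 0.09 ± 0.19 and Ifi27 at -0.01 ± 0.18. The estimate of Ifi27 was 0.07 after median centring.

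Beyond the members, interferon-responsive genes of 2 further lists leaned downward. Of 32 measured in a list of further antiviral and regulatory genes, 1 fell (3.12%) and 0 rose, beside 1.23% and 1.79% of all genes. The gene that fell was Sp100, a nuclear body protein gene. Sp100 stood at 8.40, 7.97 and 7.96 in wild type and at 6.97, 6.82 and 6.45 in ISR2 mucosa. Sp100 fell by 1.37 on the log2 scale (SE 0.18; limma adjusted p = 0.0032) and kept its call without each array in turn (adjusted p up to 0.017). Of 21 genes for interferon-gamma GTPases, chemokines and class I presentation, 2 fell (9.52%) and 0 rose. Psmb8 and Psmb10 encode subunits of the immunoproteasome, which cuts peptides for MHC class I. Psmb8 fell by 0.88 on the log2 scale (SE 0.18; limma adjusted p = 0.0306) and Psmb10 by 0.72 (SE 0.16; limma adjusted p = 0.0462). The call of Psmb10 was lost without any single array (adjusted p up to 0.21), and that of Psmb8 without any but wild type replicate 3 (up to 0.152). After median centring neither passed limma (adjusted p = 0.0558 for Psmb8 and 0.0752 for Psmb10). Nor did they when all rows were tested (limma adjusted p = 0.0928 and 0.119). Median changes were -0.17 and -0.30 in these lists, against -0.06 over all genes. Over both lists 17 of 53 genes (32.1%) had groups apart, all lower in ISR2; 13.9% of all genes were apart in that direction. At an unadjusted p of 0.05 in limma, 17 of the 53 were lower and 0 higher, beside 8.4% and 4.73% of all genes.

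The lists of ligands, receptors and inducers above these genes held no call. STAT2, IRF9, IRF7 and IRF1 also act in this chain, but their genes were counted as members. Of those, Stat2 rose, Irf1 fell and the others did not pass. At an unadjusted p of 0.05, a looser threshold, 8.4% of all genes were lower and 4.73% higher. Among 14 measured interferon ligands 0 passed limma, and 2 did at the looser threshold, both lower. Ifnb1 ranged from 4.77 to 4.95 in wild type and from 4.65 to 4.83 in ISR2 mucosa, and Ifng from 5.11 to 5.21 and from 4.96 to 5.07. Neither level was shown to be above background. Ifnl2, a type III interferon gene with a near-identical copy, changed by 0.01 ± 0.12 (SE; 95% interval -0.27 to 0.29). Among 13 receptor and JAK-STAT genes 0 passed limma, and 3 did at the looser threshold, all lower. Ifnar1, a type I receptor chain, was lower in all 3 ISR2 arrays (-0.32 ± 0.12, SE; limma adjusted p = 0.268). The other chain, Ifnar2, named after its values were seen, stood at 8.80, 8.53 and 8.48 in wild type and at 8.11, 8.03 and 7.80 in ISR2 mucosa (-0.62 ± 0.14, SE; limma adjusted p = 0.0624). Ifnlr1, the type III receptor gene, was at -0.03 ± 0.13 and Ifngr1, of the interferon-gamma receptor, at -0.11 ± 0.17. Among 15 genes that induce interferon 0 passed limma, and 4 did at the looser threshold, all lower.

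**Figure D3:**
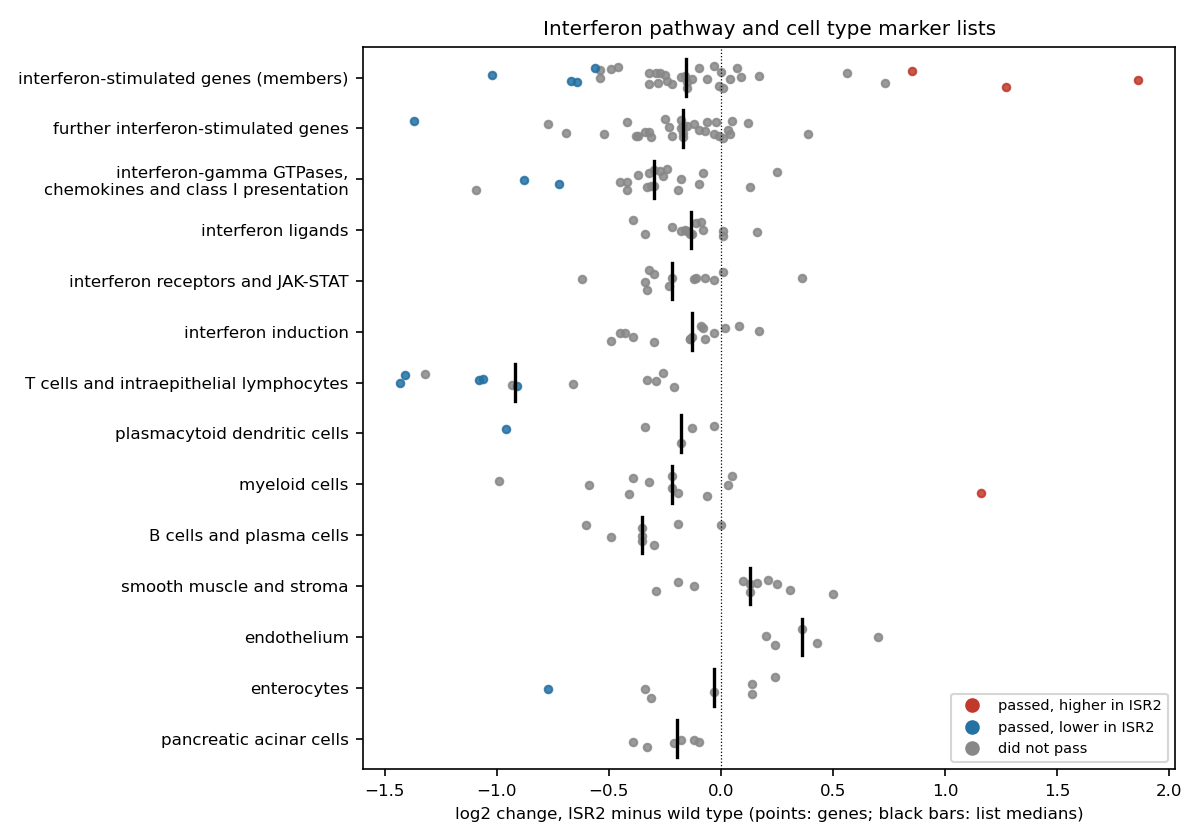
Log2 change (x axis, ISR2 minus wild type) of each measured gene in the interferon pathway lists and in marker lists of cell types; black bars are list medians. The members have calls on both sides and a median of -0.16, while the T cell and intraepithelial lymphocyte list has a median of -0.92.

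Markers of T cells were also lower. In the list of T cells and intraepithelial lymphocytes 5 of 12 measured markers fell and 0 rose, beside 1.23% of all genes that fell. The 5 were Cd7, Gzmb, Cd3e, Cd3g and Cd8a. With the first or the second wild type array left out, or the third of ISR2, Cd8a and Cd3g lost their calls and 3 markers fell. All 12 estimates were below 0, and the median was -0.92. The mean level of the list was 7.76, 7.63 and 7.26 in wild type and 6.82, 6.92 and 6.43 in ISR2 mucosa, without overlap. Cd3e, part of the antigen receptor of T cells, fell by 1.08 on the log2 scale (SE 0.17; limma adjusted p = 0.00889). The part of these cells in the falls of Zbp1, Irf1, Oas2, Oas3, Sp100 and the immunoproteasome genes was not tested. In scraped mucosa, fewer cells of a type and less RNA per cell cannot be told apart. Plasmacytoid dendritic cells, the main source of type I interferon in blood, were followed by 5 markers. Of these Ccr9, which T cells of the small intestine also carry, fell (-0.96 ± 0.17, SE; limma adjusted p = 0.018). Ccr9 did not pass with the first wild type array (adjusted p = 0.0948), the third (0.0643) or the first of ISR2 (0.105) left out. When all rows were tested it did not pass either (limma adjusted p = 0.0726). Its signal was dim, from 4.97 to 5.54 in wild type and from 4.22 to 4.48 in ISR2 mucosa. The filter on dim genes left it out, and its level was not shown to be above background. Siglech, specific to these dendritic cells, was at -0.03 ± 0.24. The mean of the list was 6.57 to 6.73 in wild type and 6.16 to 6.43 in ISR2 mucosa. The myeloid list mean was 6.97 to 7.22 and 6.52 to 7.14, with 1 of 12 risen (Cd14, a coreceptor for bacterial lipopolysaccharide, 1.16 ± 0.14, SE) and 0 fallen. The other myeloid markers did not share the rise of Cd14: 9 of the 12 estimates were below 0, with a median of -0.22. At an unadjusted p of 0.05 in limma 3 of the 12 were lower and 1 higher, beside 8.4% and 4.73% of all genes. The B and plasma cell mean was 6.55 to 6.83 and 6.01 to 6.74, with 0 of 8 passing limma and 1 lower at an unadjusted p of 0.05.

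The members also varied between arrays of 1 genotype. Within wild type, replicate 3 was the highest array in 22 of 36 members (61.1%), against 34.4% of all genes, and replicate 2 the lowest in 28 (77.8%), against 36.8% of all genes. The excess of replicate 3 over the mean of the other two was 1.29 in Ifit3, 1.00 in Rsad2, 0.62 in Usp18 and 0.59 in Ifit1. So the wild type array with the most Ifit3 also had the most Rsad2, Usp18 and Ifit1, while its Stat2 was the lowest of the 3 at 8.14. Smooth muscle and stroma markers had a mean of 7.34, 9.45 and 7.82 in wild type replicates 1, 2 and 3, so the array lowest in most members was the highest in these markers. In ISR2 the same mean was 8.07, 8.87 and 8.00, and there replicate 2, again the highest in these markers, was the highest array in most members. The part of these cells in the members' spread was not tested. Within ISR2, replicate 3 was the lowest array in 22 of 36 members (61.1%), against 36% of all genes. ISR2 replicate 2 was the highest in 20 (55.6%), against 36.8% of all genes. The median SD between arrays of a group was 0.18 in wild type and 0.17 in ISR2 mucosa for the members, and 0.15 and 0.18 for all genes.

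**Figure D4:**
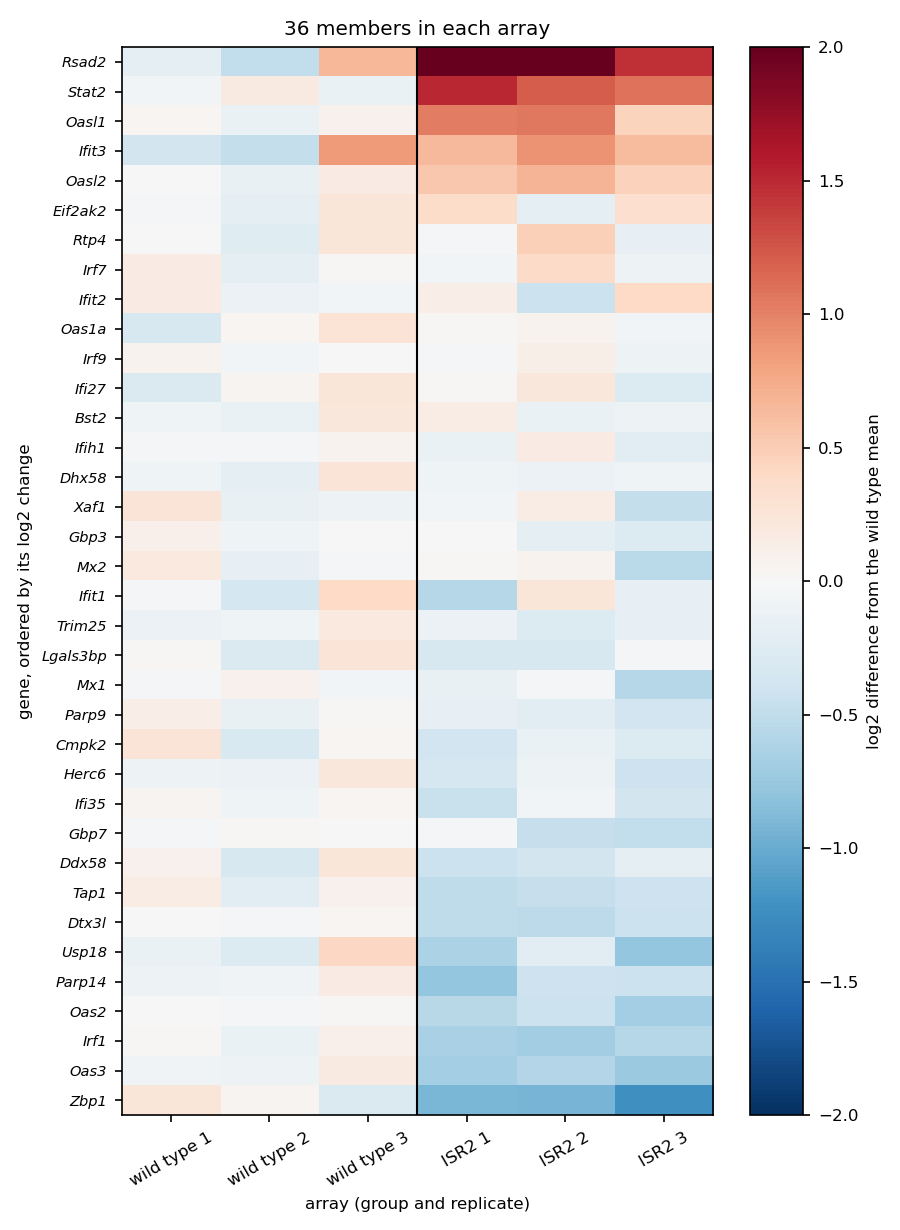
Log2 difference of each array (columns) from the wild type mean of that gene (colour scale) for the 36 measured members (rows), ordered by log2 change. Rsad2, Stat2 and Oasl1 are red and Zbp1, Oas3 and Irf1 blue in all 3 ISR2 arrays, and wild type replicate 3 is red in Ifit3 and Rsad2.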

How the data were processed

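RNA from the scrapings was biotin-labelled for Affymetrix whole-transcript arrays, per the labels' protocols. The authors deposited log2 values, and the submitters' processing notes name RMA, with no version. Their range of 1.44 to 14.8 fits that scale. RMA removes shifts common to most genes and may understate changes near background, and no detection calls were used.

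Of 35556 rows, 21789 had 1 gene symbol, 1621 several and 12146 none. A gene with several probe sets was represented by that with the highest mean over the 6 arrays, which left 19938 genes. Groups came from the sample titles. ISR2 was compared with wild type in limma 3.58.1 (R 4.3.3; lmFit, eBayes), with no covariate and two-sided p-values adjusted over all genes by Benjamini-Hochberg. The members, lists, named genes and settings were chosen with earlier results of these data known, so lists are described by counts and medians, with no test over a list. All members were named, with values by array for those that passed or had the 10 smallest p-values, and from the other interferon lists the genes that passed and a few ligands and receptors. Markers of cell types were named where they passed or as examples. In simulated data for this comparison 200 of 19938 genes were changed. The test recovered 16% of the genes given a log2 change of 0.5, 70% of those given 1 and 92% of those given 2. Of 146 calls 8 were false. The simulated noise was drawn separately for each gene and array, so spread shared by many genes of an array was not included. Rates in the real arrays may therefore differ. Same-numbered arrays were not treated as pairs, because the labels do not say that equal numbers pair them. Their deviations from the group means correlated over genes at -0.02, 0.32 and 0.54. Between arrays of unlike number the correlations ran from -0.54 to 0.20. Alternatives were other variance settings, array weights, other scalings, a filter on dim genes, other rows and probe sets, a replicate block, other thresholds and arrays left out. Promoters came from RefSeq (GRCm38.p6); the array annotation names no build, so no coordinates of probe sets are given. Figures were drawn with matplotlib 3.10.9.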

Additional observations from a re-analysis of the deposited data

How the results depend on the processing

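With 1 array left out, 1 to 3 members rose, 0 to 3 fell and 13 to 18 had groups apart, while over all genes 236 to 353 rose and 85 to 236 fell. Without wild type replicate 3 and ISR2 replicate 2 together, 3 members rose (Ifit3 in place of Oasl1) and 1 fell, 19 had groups apart, and 472 genes rose and 303 fell. Array weights gave 7 member falls, and 630 rises and 638 falls over all genes. Median centring left 1 member fall and 155 falls over all genes beside 415 rises, and testing all rows left 1 and 106. At an unadjusted p of 0.05 in limma 5 members rose and 8 fell, and 943 and 1675 genes did. An adjusted p of 0.10 gave 386 falls over all genes. The median change of the members was -0.21 to -0.12 with 1 array left out and -0.08 after centring. Stat2 alone of the 7 called members kept its call in all 18 alternatives. The replicate block left the same 3 rises and 4 falls among members and gave 426 and 352 over all genes. Whether equal replicate numbers mark paired arrays is not stated in the labels.

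Values rounded to 2 decimals changed sign in 11 members, none of them called. Irf9, whose change rounded to 0.00, was counted as having no direction and lay at 0.08 after centring and at -0.06 to 0.05 with arrays left out. With array weights the log2 change was -0.01 for Irf7, 0.12 for Bst2 and 0.01 for Ifi27. After centring it was 0.02 for Ifih1, 0.05 for Bst2 and 0.07 for Ifi27. With arrays left out, singly or as the pair named above, it ran from -0.08 to 0.17 for Irf7, -0.17 to 0.01 for Ifih1, -0.19 to 0.04 for Dhx58, -0.36 to 0.04 for Ifit1, -0.14 to 0.28 for Ifit2, -0.15 to 0.15 for Oas1a, -0.27 to 0.05 for Mx2, -0.11 to 0.14 for Bst2, -0.15 to 0.13 for Ifi27, -0.32 to 0.05 for Xaf1 and -0.10 to 0.22 for Rtp4. The causes of these changes were not tested. The distance of dim genes from background was not measured.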
